A study of Homo sapiens with 4 samples.

Results

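The proteasome genes were taken as the protein-coding genes of GENCODE on GRCh38 whose symbols begin with PSMA, PSMB, PSMC, PSMD, PSME, PSMF or PSMG followed by a digit. The rule found 50 genes among 19970 on chromosomes 1 to 22 and X. Of these, 5 are the immune-inducible genes PSMB8, PSMB9, PSMB10, PSME1 and PSME2, and they were set beside the other 45. PSMC3IP and PSME3IP1 are among the 45 by symbol only, since each is named as a partner of a proteasome protein and neither encodes a proteasome part.

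The study assayed chromatin accessibility by ATAC-seq, in which a transposase inserts sequencing adapters into open DNA, in HK1, a nasopharyngeal carcinoma cell line. The groups were WT cells, untreated (WT) or given the cytokine IFN-γ (WT-IFN-γ), and FLI1 knockout (FLI1-KO) cells, untreated (sgFLI1) or given IFN-γ (sgFLI1-IFN-γ). FLI1 is an ETS family transcription factor, and the knockout was made with CRISPR guides. Which guide, and whether the cells were a pool or a clone, is not given in the sources used here. Each group had 1 peak list, so every difference below is between libraries, has no replicate check and carries no p-value.

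The proteasome degrades proteins tagged with ubiquitin. Its 20S core is a stack of alpha and beta rings, in which the beta subunits PSMB5, PSMB6 and PSMB7 carry the proteolytic sites, and the 19S particle recognises, unfolds and feeds substrates into the core. IFN-γ is known to induce the beta subunits PSMB8, PSMB9 and PSMB10, which replace the constitutive catalytic subunits to form the immunoproteasome, and the PSME1 and PSME2 subunits of the 11S activator, and these changes favour the production of peptides for presentation on MHC class I.

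The lists held between 59629 and 67470 peaks, and the lowest pileup listed was 7 or 8 tags. The pileup, the number of extended reads stacked at a summit, was recovered from the listed fold and −log10 p, and was divided by the tag density of its library, which lay between 6.86 and 8.84 tags per kb. Where 4 values are given without labels, they are for WT, WT-IFN-γ, then the untreated and the treated FLI1-KO library, in that order. Ratios between libraries are of this normalised pileup, with exact 95% intervals that cover counting error only. FLI1 itself had a promoter peak of 12 tags without and 22 tags with IFN-γ in WT cells and none in either FLI1-KO list, though a peak list does not show whether a guide edited the gene. Of the markers given here, EPCAM (epithelial) and VIM (mesenchymal) had a promoter peak in each list, KRT13 in WT only, and KRT5, KRT14, TP63 and the blood markers PTPRC and CD3E in none.

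The upstream sequences of the 5 immune-inducible genes are shown because the peaks described below lie on or beside them. Each run holds the 250 bases before the RefSeq start on GRCh38.p14, 5′ to 3′ on the strand of the gene. Capitals mark the letters GAAANNGAA, the core that interferon regulatory factors (IRF) bind, TGACNNNGC, the antioxidant response element, or CCAAT, the NF-Y box, on either strand.
PSMB8, chr6:32844680-32844929, minus strand: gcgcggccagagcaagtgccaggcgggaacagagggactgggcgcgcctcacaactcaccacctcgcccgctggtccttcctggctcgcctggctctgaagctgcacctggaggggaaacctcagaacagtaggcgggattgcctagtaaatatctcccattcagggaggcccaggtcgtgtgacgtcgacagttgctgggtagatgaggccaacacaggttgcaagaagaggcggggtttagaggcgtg
PSMB9, chr6:32853942-32854191, plus strand: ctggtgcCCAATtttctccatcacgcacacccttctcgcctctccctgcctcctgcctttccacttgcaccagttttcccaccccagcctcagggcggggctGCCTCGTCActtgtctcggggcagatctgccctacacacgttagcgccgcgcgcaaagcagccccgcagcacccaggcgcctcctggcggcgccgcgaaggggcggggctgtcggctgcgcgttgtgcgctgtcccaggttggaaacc
PSMB10, chr16:67936851-67937100, minus strand: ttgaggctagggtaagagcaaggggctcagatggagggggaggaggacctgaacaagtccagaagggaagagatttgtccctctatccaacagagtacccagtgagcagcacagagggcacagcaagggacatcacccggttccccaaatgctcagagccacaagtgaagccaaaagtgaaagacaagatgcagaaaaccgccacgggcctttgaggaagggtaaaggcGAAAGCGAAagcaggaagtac
PSME1, chr14:24135944-24136193, plus strand: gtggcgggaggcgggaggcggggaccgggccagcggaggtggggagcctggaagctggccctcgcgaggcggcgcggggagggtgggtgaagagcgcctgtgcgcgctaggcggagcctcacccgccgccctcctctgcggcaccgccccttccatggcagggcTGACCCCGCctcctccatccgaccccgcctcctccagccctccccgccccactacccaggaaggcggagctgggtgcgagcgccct
PSME2, chr14:24146611-24146860, minus strand: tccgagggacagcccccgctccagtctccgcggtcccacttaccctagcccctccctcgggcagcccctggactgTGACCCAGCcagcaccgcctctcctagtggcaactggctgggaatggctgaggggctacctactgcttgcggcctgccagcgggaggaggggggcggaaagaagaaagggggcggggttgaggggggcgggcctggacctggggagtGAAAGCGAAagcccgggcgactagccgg
PSMB10 held the IRF letters from 21 to 13 bases before its start and PSME2 from 28 to 20 bases before. PSME1 held them from 6 to 14 bases after its start, beyond the run shown. The 300-base RefSeq promoters of PSMB8 and PSMB9 did not hold these letters. In all, 3 of the 5 immune-inducible promoters, 4 of 39 other members with a RefSeq promoter and 7.04% of 15316 coding promoters held the IRF letters. Within 150 bases of the listed promoter summits, 2 of 4, 3 of 5, 3 of 4 and 2 of 4 immune-inducible genes held them. The shares of all listed promoters were 5.58%, 6.57%, 5.73% and 5.74%. PSMB9 was among these genes in every list except WT, so its summit region held the letters beyond the RefSeq window. PSME2 was among them in every list except sgFLI1-IFN-γ. In those lists its summit lay 641, 601 and 641 bp upstream of the start. The PSME2 match at the summit was therefore not the one 28 to 20 bases before the start, and lay beyond the run shown.

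Open promoters were listed for nearly every proteasome gene in every library. A peak with its summit within 1 kb of the canonical start was listed for 47, 48, 47 and 47 members, against 11864, 12034, 11893 and 11751 of all 19970 genes. PSMA8, an alpha subunit known from the testis, had no peak within 10 kb in any list. PSMB11, the beta subunit of thymic epithelium, had 1 peak within 10 kb in each list and none at its promoter. The median normalised pileup of the members was 14.7, 14.5, 14.9 and 13.4, and that of all listed promoters was 12.1, 11.3, 12.1 and 10.9.

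**Figure D1:**
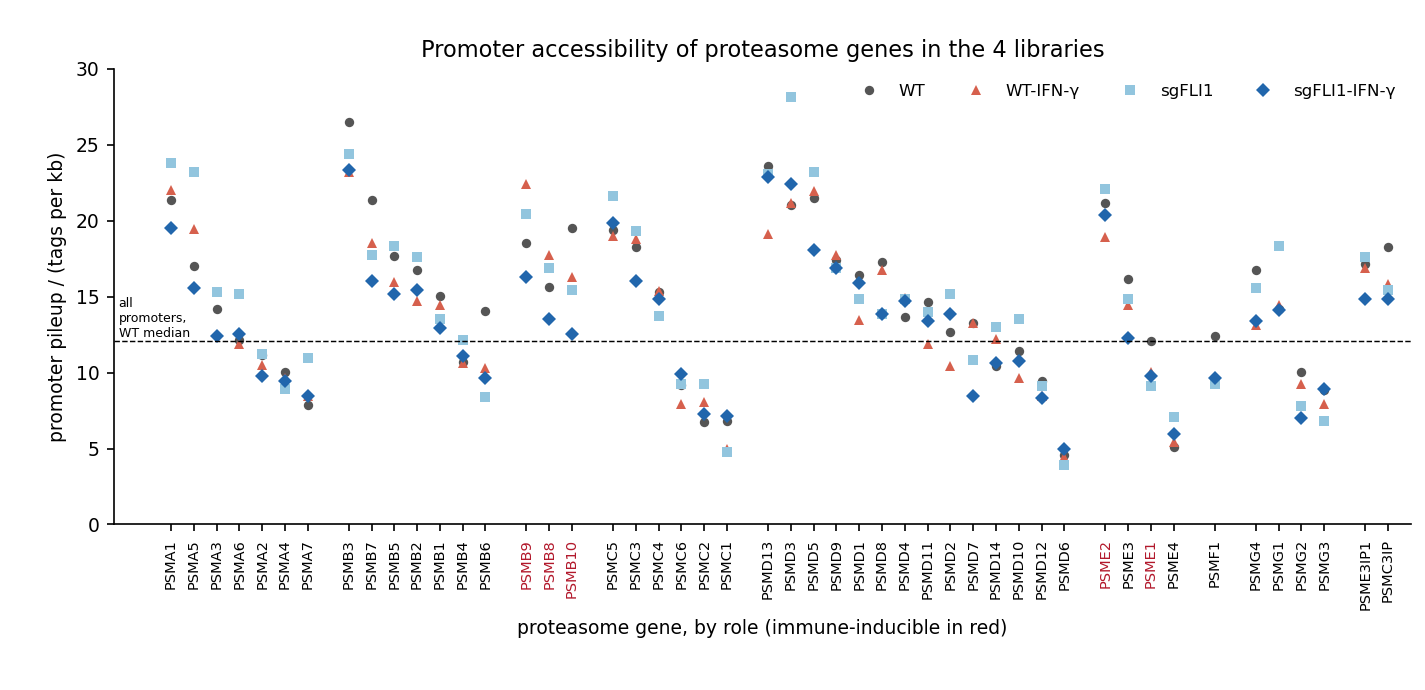
Normalised promoter pileup (tags divided by tags per kb) of the 48 proteasome genes with a promoter peak, by role on the x axis, with 1 point for each of the 4 libraries. The peak is the highest that overlaps 1 kb either side of the canonical start. Levels differed more between genes than between libraries, with PSMB3 above 23 and PSMD6 below 5 in all 4.

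Among the 20S alpha subunits, PSMA1 had the highest promoter in each list, with 172, 195, 165 and 134 tags, or 21.4, 22.1, 23.8 and 19.5 after normalisation. PSMA7 lay lowest in 3 of the lists, with normalised pileups of 7.83, 8.49 and 8.46 in WT, WT-IFN-γ and sgFLI1-IFN-γ. PSMA4 was lowest in sgFLI1, at 8.94.
Among the constitutive beta subunits, PSMB3, a structural member of the ring, was highest with 213, 205, 169 and 160 tags (26.5, 23.2, 24.4 and 23.3 normalised). The catalytic PSMB5 had 142, 141, 127 and 104 tags and PSMB7 had 172, 164, 123 and 110. PSMB6, the third catalytic subunit, had 113, 91, 58 and 66 tags, and its normalised pileup was highest in WT, at 14.1, and between 8.37 and 10.3 in the other libraries.

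The 19S ATPases, which unfold substrates, ran from PSMC5 (156, 168, 150 and 136 tags) down to PSMC1 (55, 44, 33 and 49 tags) and PSMC2 (54, 71, 64 and 50 tags). Among the other 19S subunits, PSMD13, PSMD3 and PSMD5 lay highest and PSMD6 lowest. PSMD6 had 37, 39, 27 and 34 tags, and its normalised pileup stayed between 3.9 and 4.96, the lowest of the members in each list. The activator PSME4 was also low, with 41, 48, 49 and 41 tags. The inhibitor PSMF1 had 100, 85, 64 and 66 tags. The assembly chaperones PSMG1 to PSMG4 lay between 6.78 and 18.3 after normalisation.

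Of the immune-inducible genes, PSMB8, PSMB9, PSME1 and PSME2 already had a promoter peak in untreated cells of both genotypes. By the 1 kb rule, PSMB10 had no promoter peak in those cells. PSMB8 had 126, 157, 117 and 93 tags, a normalised pileup of 15.7, 17.8, 16.9 and 13.6. PSMB9 had 149, 198, 142 and 112 tags, or 18.5, 22.4, 20.5 and 16.3. The PSMB8 summit lay 645 bp upstream of the GENCODE canonical start in WT and 13 bp upstream of the RefSeq start. The RefSeq start of PSMB8 is 632 bp upstream of the canonical one. For both genes WT-IFN-γ held the highest value and sgFLI1-IFN-γ the lowest.
PSMB10 had 157, 144, 107 and 86 tags (19.5, 16.3, 15.4 and 12.5), highest in WT and lowest in sgFLI1-IFN-γ. Its summit lay 1010, 994, 1007 and 1063 bp downstream of the canonical start, so only that of WT-IFN-γ fell inside the 1 kb limit. Its values here are therefore those of the highest peak that overlaps 1 kb either side of the start, a measure chosen after the data were seen. By this measure, the log2 ratio of PSMB10 was −0.34 in sgFLI1 over WT and −0.38 in sgFLI1-IFN-γ over WT-IFN-γ. The medians of its chromosome, 16, were −0.27 and −0.36, so its lower FLI1-KO values were close to those of its chromosome. The PSMB10 peak was shared with the start of another gene, ENSG00000261884. For the 2 activator genes, PSME1 had 97, 89, 63 and 67 tags (12.1, 10.1, 9.09 and 9.77) and PSME2 had 170, 167, 153 and 140 (21.1, 18.9, 22.1 and 20.4). The PSME2 summit lay 641, 601, 641 and 451 bp upstream of its start. Its peak was shared with the starts of RNF31 and ENSG00000259529, so the PSME2 values may not be of its promoter alone.

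The response to IFN-γ was asked first of the summit. In WT the IFN-γ to untreated ratio was 1.13 for PSMB8 (95% interval 0.891 to 1.45), 1.21 for PSMB9 (0.973 to 1.51), 0.835 for PSMB10 (0.661 to 1.05), 0.835 for PSME1 (0.619 to 1.12) and 0.894 for PSME2 (0.718 to 1.11). None of the 5 passed 1.5-fold, and each interval held 1. Of the 12125 genes tested, 2.33% were higher past 1.5-fold and 2.31% were lower, and none of the 45 other members was in either class.
In FLI1-KO cells the ratio was 0.803 for PSMB8 (0.605 to 1.06), 0.797 for PSMB9 (0.617 to 1.03), 0.812 for PSMB10 (0.604 to 1.09), 1.07 for PSME1 (0.75 to 1.54) and 0.925 for PSME2 (0.73 to 1.17). Again none of the 5 passed 1.5-fold. Among the other members 1 was higher, against 1.27% of 12004 genes, and none was lower, against 3.99%. The one was PSMC1, with 33 tags untreated and 49 with IFN-γ, a ratio of 1.5 whose interval (0.946 to 2.41) held 1.

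As a group, the other members followed the bulk of promoters. Their median log2 ratio with IFN-γ was −0.06 in WT (n = 43 genes) and −0.15 in FLI1-KO (n = 43), and that of all promoters was −0.08 (n = 11566) and −0.16 (n = 11431). Of the 43, 23 lay above the median of all promoters in WT and 23 in FLI1-KO.
PSMA5 had 137, 172, 161 and 107 tags, and its ratio with IFN-γ in FLI1-KO was 0.672 (0.521 to 0.863). PSMD5 and PSMD3, both 19S subunits, also had intervals below 1 there, with ratios of 0.778 (0.611 to 0.99) and 0.798 (0.642 to 0.991). PSMB6 was the only member with such an interval in WT, at 0.733 (0.55 to 0.975). Intervals below 1 were seen at 3.56% of all promoters in WT and 8.46% in FLI1-KO, and intervals above 1, which no member had, at 1.13% and 0.254%. The intervals were not adjusted for the 47 members compared.

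The response was asked next of the extent of the peaks, a measure that was chosen after the data were seen. In WT, the promoter peak of IFN-γ-treated cells reached at least 250 bp beyond that of untreated cells at 3 of the 5 immune-inducible genes, PSMB8, PSMB9 and PSMB10, and at 3 of 43 other members, PSMA4, PSMA5 and PSMC5, against 5.89% of 12019 genes. In FLI1-KO the same was seen at 1 of the 5, PSMB10, and at 2 of 43 others, PSMD6 and PSME3IP1, against 6.23% of 11878 genes.

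**Figure D2:**
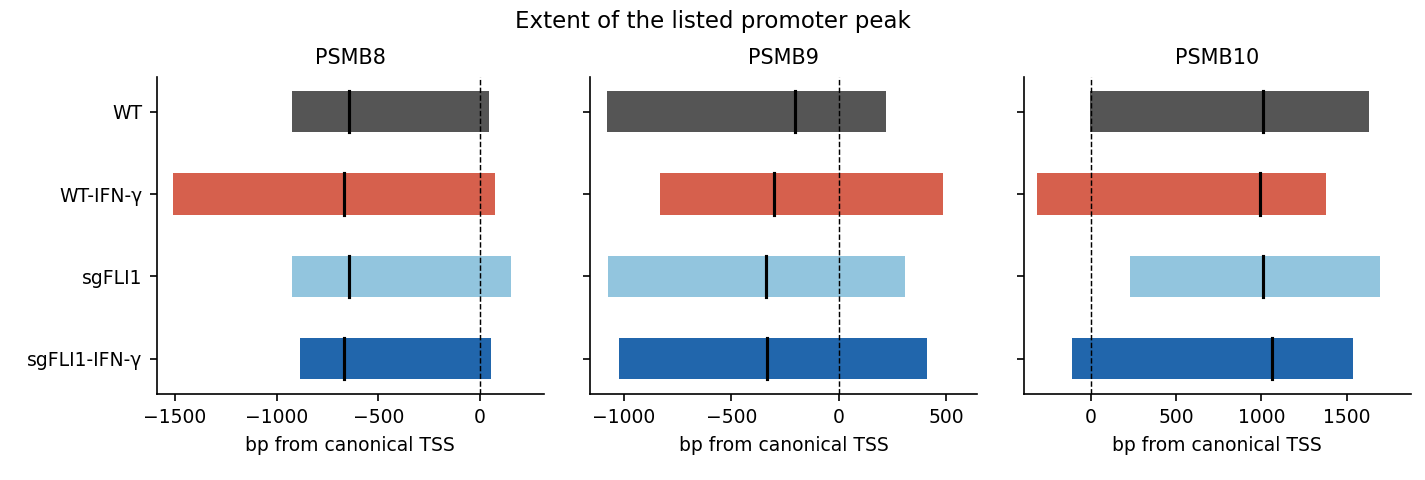
Extent of the listed promoter peak (bars) and its summit (black lines) at PSMB8, PSMB9 and PSMB10 in the 4 libraries, in bp from the canonical start (dashed line) in the direction of transcription. The WT-IFN-γ peak reaches 586 bp further upstream than the WT peak at PSMB8, 268 bp further downstream at PSMB9 and 307 bp further upstream at PSMB10, where the sgFLI1-IFN-γ peak reaches 338 bp further upstream than the sgFLI1 peak.

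At PSMB8, the peak ran from 32844001 to 32844971 on chromosome 6 in WT and from 32843971 to 32845557 in WT-IFN-γ. Its width was 971, 1587, 1075 and 940 bp, so that only the WT-IFN-γ peak was wide. The upstream edge moved outward by 586 bp with IFN-γ in WT and by −39 bp, that is inward, in FLI1-KO. The added stretch, from 32844972 to 32845557, lies upstream of PSMB8 over the antisense RNA gene PSMB8-AS1 and exons of TAP1, which encodes a subunit of the transporter that carries proteasome products into the endoplasmic reticulum. It held no IRF letters and 1 CCAAT box.

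PSMB8 also stood apart in its local background, the tag level that the peak caller took from the surroundings of the summit, which was also compared only after the data were seen. This came to 11.7, 23.8, 9.82 and 9.81 tags. Divided by tag density, it was 1.86 times as high with IFN-γ in WT and 1.01 times in FLI1-KO. In WT 1 of the 5 immune-inducible genes and none of 43 other members passed 1.5-fold, against 0.599% of genes, and PSMB8 lay at the 99.8th percentile of all promoters. In FLI1-KO none of the members passed, against 0.00842%. Between the treated libraries, the ratio of sgFLI1-IFN-γ to WT-IFN-γ was 0.531 at PSMB8, which lay below 1 by more than 1.5-fold. PSMD7, at 0.58, did so too, which made 2 of 48 members, near the 3.86% of all genes. PSMD7 is on chromosome 16, where the median log2 ratio of summit pileup was −0.37 in this comparison.

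At PSMB9, the peak reached 268 bp further into the gene with IFN-γ in WT and 102 bp further in FLI1-KO. Its upstream edge moved by −243 bp, that is inward, with IFN-γ in WT, so the width was 1296 bp before and 1321 bp after, and the listed peak shifted more than it widened. The peak is shared with the start of TAP1, which is transcribed the other way. The stretch added in WT, from 32854412 to 32854679, lies in an intron of PSMB9 and held the IRF letters once. They are shown in capitals with their flanks, plus strand.
PSMB9, chr6:32854543-32854611: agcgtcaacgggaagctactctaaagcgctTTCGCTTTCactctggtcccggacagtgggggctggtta
The local background at this peak was 15.4, 18.9, 11.5 and 12.4 tags, a ratio with IFN-γ of 1.12 in WT and 1.09 in FLI1-KO.

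At PSMB10, the peak of untreated WT ended 4 bp upstream of the start, at 67936854, and that of WT-IFN-γ at 67937161. In FLI1-KO the untreated peak ended inside the gene, at 67936621, and the treated one at 67936959, beyond the start. Both added stretches held the IRF letters that lie 21 to 13 bases before the start, at 67936863 to 67936871. Its downstream edge moved inward in both genotypes, by −250 bp in WT-IFN-γ against WT and by −158 bp between the FLI1-KO libraries, and the width was 1634, 1691, 1465 and 1645 bp. The listed peak thus reached further over the start with IFN-γ in both genotypes, while the intervals of both summit ratios held 1. At PSME1 and PSME2 neither edge moved outward by 250 bp in either genotype.

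These letters were looked for in the first 250 bases beyond the untreated edge of all such stretches. They were held by 60 of 724 stretches in WT (8.29%) and by 51 of 755 in FLI1-KO (6.75%). Among the members, 2 of 7 stretches in WT and 2 of 3 in FLI1-KO held them.

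**Figure D3:**
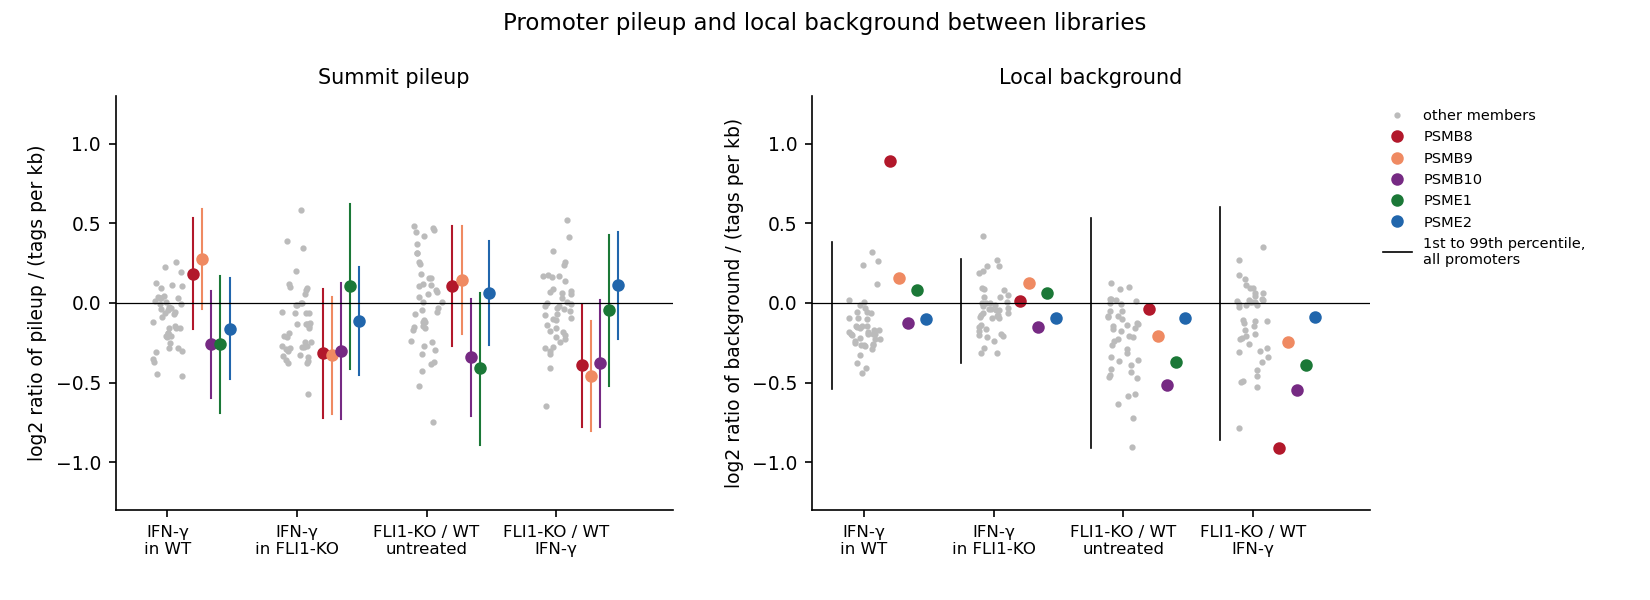
Log2 ratio of normalised summit pileup (left, with 95% counting intervals for the immune-inducible genes) and of normalised local background (right) in the 4 comparisons. Grey points are the other members, and black bars on the right span the 1st to the 99th percentile of all promoters. PSMB8 has a log2 background ratio of 0.89 with IFN-γ in WT and −0.91 between the treated FLI1-KO and WT libraries.

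The windows of 10 kb around the starts, promoters included, were also compared by presence of peaks. Peaks near the members fell into 115 regions, of which 87 (75.7%) were listed in all 4 libraries, compared with 56.1% of 39363 regions near any protein-coding gene. A promoter peak was listed for 47 or 48 of the 50 members and for 58.8% to 60.3% of all genes. The shares were not compared among genes with a promoter peak only. Near the 5 immune-inducible genes, 10 of 11 regions were in all 4 lists. The windows of PSMB8 and PSMB9 share peaks, as do those of PSME1 and PSME2, so the genes of these pairs are not independent.

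With IFN-γ in WT, 1 of the 5 immune-inducible genes and 9 of the 45 others had a peak that shared no base with an untreated peak, against 26.1% of all genes. In FLI1-KO, none of the 5 and 5 of the 45 had one, against 17.2%. Peaks listed in untreated cells only were near none of the 5 and 6 of the 45 in WT, against 15.7%, and near none of the 5 and 3 of the 45 in FLI1-KO, against 22.3%. Of all 50 members, 20% had a gained peak in WT and 10% in FLI1-KO, and 12% and 6% had a lost one. Each lay below the share of all genes. Members can share peaks and each group had 1 library, so these differences were not tested. With a −log10 q of at least 5, gained peaks were near 8 of the 50 members (16%) in WT, against 13.9% of all genes. In FLI1-KO they were near 4 members (8%), against 6.62%. With so few genes, both shares were close to those of all genes.

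**Figure D4:**
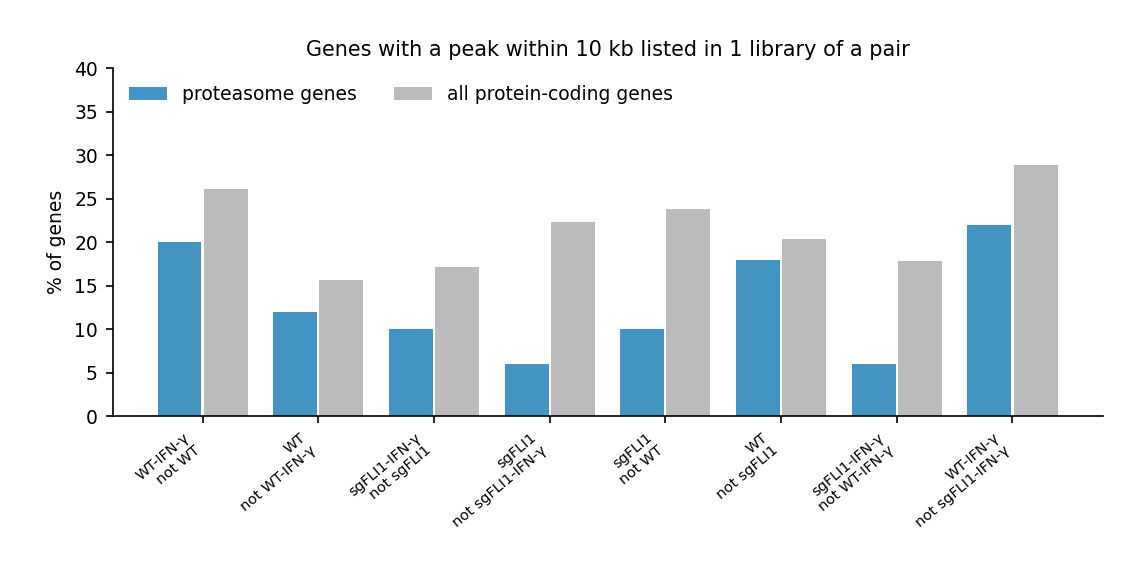
Percent of the 50 proteasome genes (blue) and of all 19970 protein-coding genes (grey) with a peak within 10 kb of a start that was listed in the first library named and shared no base with a peak of the second. The shares run from 6% against 22.3% to 22% against 28.9%, and the differences were not tested.

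The gained region of an immune-inducible gene was near PSMB10, 8815 bp upstream of its canonical start in an intron of SLC12A4. It had 36 tags in WT-IFN-γ with a −log10 q of 6.11, and the same site was listed in both FLI1-KO libraries, with 37 tags before and 36 after treatment. In WT it would have been listed from about 24 tags, so the ratio was at least 1.37 at that limit. It was therefore not particular to IFN-γ across the genotypes.

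Among the other members, the regions gained in WT that stood furthest above the listing limit were near PSMA6, PSME3, PSMF1 and PSMD4. The alpha subunit PSMA6 had a peak of 73 tags in its intron, 1985 bp downstream of the canonical start, listed in WT-IFN-γ only. Untreated WT would have listed it from about 26 tags and sgFLI1-IFN-γ from about 22, which sets its ratio at 2.56 or more and 2.58 or more. PSMF1, the inhibitor, had a peak of 57 tags in an intron, 4443 bp downstream, also in WT-IFN-γ only, with ratios of 2.47 or more over WT and 2.46 or more over sgFLI1-IFN-γ.
PSME3, a nuclear activator subunit, had a peak of 30 tags at the 3′ end of the gene in WT-IFN-γ, with a ratio of 2.73 or more over WT. This site was listed in both FLI1-KO libraries too, with 15 tags before and 24 after treatment. PSMD4, the ubiquitin receptor, had the only region gained with IFN-γ in both genotypes, 2865 bp upstream of the canonical start, with 52 tags in WT-IFN-γ and 40 in sgFLI1-IFN-γ. Its ratio was at least 1.97 in WT and 1.93 in FLI1-KO at the listing limits. The remaining gained regions in WT, near PSMB7, PSMC5, PSMD7, PSMD12 and PSMG3, held between 10 and 48 tags.

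The IRF letters lay within 150 bases of the summit of 4 of the 11 peaks gained near members in WT, those of PSMA6, PSMB7, PSME3 and PSMF1, against 17.8% of 5651 peaks gained near any coding gene. In FLI1-KO they were at none of 5, against 10.2% of 3478. The PSME3 match in WT began 115 bases past the summit, beyond the end of the gained peak at 42843610. The PSMA6, PSMB7 and PSMF1 sites lie in introns and are shown on the plus strand because they carry the letters. In PSMA6, 2 matches overlap.
PSMA6, chr14:35294380-35294448: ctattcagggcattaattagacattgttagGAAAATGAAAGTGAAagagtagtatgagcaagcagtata
PSMB7, chr9:124411647-124411715: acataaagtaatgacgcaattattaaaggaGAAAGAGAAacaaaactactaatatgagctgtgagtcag
PSMF1, chr20:1123033-1123101: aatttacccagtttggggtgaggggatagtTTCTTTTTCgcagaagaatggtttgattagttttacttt
The region near PSMD4 held no IRF letters within 150 bases of its summit and held a CCAAT box.

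In FLI1-KO, gained regions were near PSMB6, PSMD4, PSMD6, PSMD9 and PSMD11. The region 7381 bp upstream of PSMD6 had 21 tags in sgFLI1-IFN-γ and 19 in WT and was listed in neither of the other libraries, so its presence followed neither genotype nor treatment. PSMB6 had a region 8692 bp upstream with 35 tags in sgFLI1-IFN-γ, and the same site had 60 tags in WT and 56 in WT-IFN-γ. The PSMD9 region of 14 tags was also listed in WT and WT-IFN-γ, with 9 and 12 tags, so both sites were missing from sgFLI1 only. PSMD11 had a region of 8 tags that was in no other list.

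Regions that were listed in untreated cells and not with IFN-γ were mostly small. In WT they held 9 or 10 tags near PSMB3, PSMC1, PSMD5 and PSMD9, close to the lowest pileup listed, 19 tags near PSMD6 and 23 tags near PSME3IP1. In FLI1-KO they held 16 tags near PSMD12, 32 near PSMG3, and 18 and 23 near the assembly chaperone PSMG4.

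The genotypes were also compared. In untreated cells, peaks in sgFLI1 and not WT lay near 1 of the 5 immune-inducible genes and 4 of the 45 others, against 23.8% of all genes, and peaks in WT and not sgFLI1 near none of the 5 and 9 of the 45, against 20.4%. With IFN-γ, peaks in sgFLI1-IFN-γ and not WT-IFN-γ lay near none of the 5 and 3 of the 45, against 17.9%, and the reverse near none of the 5 and 11 of the 45, against 28.9%. PSMG2, an assembly chaperone on chromosome 18, had a region of 39 tags just beyond its 3′ end in each FLI1-KO library that was in neither WT list, with ratios of at least 3.23 untreated and 3.59 with IFN-γ at the listing limits. The reverse, a region in both WT lists and neither FLI1-KO list, was seen at 3 of the 115 regions (2.61%, against 3.32% of regions near any coding gene). The one near PSME3IP1, 17863 bp downstream of its canonical start, had 29 tags in WT and 19 in WT-IFN-γ, with ratios of at least 3.57 and 2.11. The one 3788 bp upstream of PSMD1, a 19S subunit, had 45 and 49 tags, with ratios of at least 1.69 and 1.73, and another near PSMG2 had 26 tags in each, with ratios of at least 1.25 and 1.26. Promoters on chromosome 16, which holds PSME3IP1, had a median log2 ratio of FLI1-KO over WT of −0.27 untreated and −0.37 with IFN-γ. On chromosome 18, which holds PSMG2, the medians were −0.33 and −0.38.

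At the promoters, PSMB6 was the only member past 1.5-fold in sgFLI1 over WT, with a ratio of 0.596 (0.426 to 0.824). No member was higher, against 4.27% of 12114 genes, and 1 was lower, against 5.31%. PSMB6 lay at −0.75 on the log2 scale, while the median of chromosome 17 was −0.02. PSMA5 and PSMD3 had intervals above 1, with ratios of 1.36 (1.08 to 1.73) and 1.34 (1.08 to 1.65). Over all promoters 6.73% had an interval above 1 and 6% below 1.

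With IFN-γ, no member was higher in sgFLI1-IFN-γ than in WT-IFN-γ past 1.5-fold, against 3.13% of 12128 genes, and 1 was lower, against 6.77%. This was PSMD7, with 107, 117, 75 and 58 tags and a ratio of 0.639 (0.458 to 0.882) between the treated libraries. PSMD7 is on chromosome 16, whose median log2 ratio was −0.37 in this comparison, so −0.65 at PSMD7 was −0.28 relative to its chromosome. A difference in copy number between the lines and a difference in accessibility cannot be told apart here.
PSMB8 and PSMB9 were the immune-inducible genes whose intervals left out 1, with ratios of 0.763 (0.584 to 0.993) and 0.729 (0.573 to 0.923) in sgFLI1-IFN-γ over WT-IFN-γ. With PSMD7 they made 3 members with an interval below 1, against 8.67% of all promoters, and none had one above 1, against 2.57%. They lay at the 12.9th and 9.35th percentile of all promoters. Divided by the local background, which was higher in WT-IFN-γ, the log2 ratio of PSMB8 turned from −0.39 to 0.52, and that of PSMB9 stayed negative, at −0.21. The chromosome 6 median was −0.03 on the log2 scale, against −0.39 for PSMB8 and −0.46 for PSMB9. In untreated cells their ratios were 1.08 (0.831 to 1.4) and 1.11 (0.873 to 1.4). The median of the other 43 members was 0.01 on the log2 scale untreated and −0.03 with IFN-γ, against 0.02 and −0.06 for all promoters.

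The letters CCGGAAGT, bound by ETS factors such as FLI1, were at 8 of 39 other members' RefSeq promoters and none of the 5 immune-inducible ones, against 6.33% of coding promoters. Within 150 bases of the WT promoter summits, 9 of 43 other members held them, against 8.43% of 11864 summits. These 9 were PSMA6, PSMB7, PSMC1, PSMC2, PSMD8, PSMD12, PSMD14, PSMF1 and PSMG3. Their log2 ratio of sgFLI1 over WT had a median of −0.27 and ran from −0.52 to 0.46. That of the 34 without the letters had a median of 0.02 and ran from −0.75 to 0.49, so the ranges overlapped. The −0.27 is the value of PSMB7 on chromosome 9, whose median was −0.21, and PSMB7 was −0.06 relative to its chromosome. The same split was not made for all promoters, and a link between the letters and the ratios was not tested. With IFN-γ, the medians were −0.03 for 11 members with the letters and −0.03 for 32 without. The antioxidant response element letters were at 13 of 44 members' RefSeq promoters, against 14.3% of coding promoters, and CCAAT was at 21 of 44, against 36.6%.

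A list of 20 further genes of the pathway, holding assembly factors such as POMP, ubiquitin receptors such as ADRM1, deubiquitinases such as USP14, and the transcription factors NFE2L1 and NFE2L2 that drive proteasome gene expression, was described in the same way. No gene of the list passed 1.5-fold with IFN-γ in either genotype, and the median log2 ratio was −0.05 in WT (n = 18) and −0.27 in FLI1-KO (n = 19). Of all genes, 2.33% were higher and 2.31% lower in WT, and 1.27% higher and 3.99% lower in FLI1-KO. The medians of all promoters were −0.08 in WT and −0.16 in FLI1-KO. UBQLN1, which shuttles ubiquitinated proteins, was lower past 1.5-fold in both comparisons of FLI1-KO with WT, at −0.86 untreated and −1.11 with IFN-γ on the log2 scale. It was the only gene of the list that was lower, against 5.31% of all genes untreated and 6.77% with IFN-γ. UBQLN1 is on chromosome 9, whose median log2 ratio was −0.21 untreated and −0.26 with IFN-γ. With IFN-γ, NFE2L2 was the only one of the 20 with a peak gained within 10 kb in WT, against 26.1% of all genes, and NFE2L1, NFE2L2 and UCHL5 had one in FLI1-KO, against 17.2%. A peak was lost near 6 of the 20 in WT (NFE2L1, NFE2L2, NGLY1, PAAF1, UBE3C and UBQLN1), against 15.7%, and near 4 in FLI1-KO (NFE2L2, PAAF1, UCHL5 and ZFAND5), against 22.3%.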

How the data were processed

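ATAC-seq peak lists of 4 HK1 libraries, 1 for each group, were analysed. Per the study's methods and the submitters' processing notes, the authors used Trimmomatic for trimming and Bowtie2 (2.3.4.1) for alignment to GRCh38, removed low-quality and duplicate alignments, and called peaks with MACS2 (2.1.2). A filter between replicates (IDR) is named there, but whether the lists were made before or after it, or from pooled replicates, is not given in the sources used here, nor is any shift for the transposase. Each deposited list gives a score, a fold enrichment over local background (a ratio), −log10 p and −log10 q for each peak, and the largest q was 0.0499.

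Whole-number pileups and local backgrounds were recovered from fold and −log10 p, and all peaks matched within 0.001 in −log10 p. The recovery and the intervals were tested on simulated data. Tag density was 1000 times the lowest background divided by the shortest peak width. A gene's promoter value was the highest pileup with its summit within 1 kb of the canonical start of GENCODE 44, and nearby peaks had their summit within 10 kb of any start. A peak was shared if at least 1 base overlapped. A promoter listed in 1 library only was called past 1.5-fold where its ratio to the lowest pileup that would have been listed passed it. Ratio intervals were exact conditional binomial. With 1 library per group no test was run. The intervals treat the pileup as a count of independent tags and, with 1 library per group, cover counting error only.

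Named were the 5 immune-inducible genes, the other members with a gained or lost peak, with a ratio whose interval left out 1 and passed 1.5-fold, or with no promoter peak, and the highest and lowest of each role. Further genes were added after their values were seen. The members and lists were chosen with earlier results of these data known. Alternatives were q limits, windows, normalisations and the definition of sharing. Python was used with numpy, pandas and scipy. A marker gene of the list used to check the cell line is not reported here.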

Additional observations from a re-analysis of the deposited data

Results flagged for a closer look

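The IFN-γ response of 3 immune-inducible promoters went in opposite directions in the genotypes, with 1 library per group, so the difference was not tested. The log2 ratio of promoter pileup with IFN-γ was 0.18 in WT and −0.32 in FLI1-KO for PSMB8, 0.27 and −0.33 for PSMB9, and −0.26 and 0.10 for PSME1. Divided by the local background, PSMB8 was at −0.71 and −0.33, so its directions were then no longer opposite. All of the ratios by tag density had counting intervals that held 0 on the log2 scale. The upstream edge of the PSMB8 peak also moved in opposite directions, by 586 bp (outward) with IFN-γ in WT cells and by −39 bp (inward) in FLI1-KO cells, and this was not tested either.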

How the results depend on the processing

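No paired analysis was possible because each group had 1 library and no comparison held replicate pairs. An additive model over the 4 libraries was not run. With 1 list per group, values differ between libraries whose depth also differs, low peaks near 7 or 8 tags are at the limit of listing, and local background, edge and pileup come from the same tags.

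Of 5 immune-inducible members, 1 had a region gained in WT. The count was 0 with a −log10 q of at least 10 and 0 within 3 kb, and 4 within 50 kb. In FLI1-KO it was 0, and 2 within 50 kb. For the other members the 9 gained in WT became 4 with a −log10 q of at least 10, 3 within 3 kb and 26 within 50 kb, and the 5 in FLI1-KO became 2, 3 and 19 under the same settings. The shares of all genes moved with them, from 5.94% to 60.5% in WT and from 1.43% to 46% in FLI1-KO. With a −log10 q of at least 10, the share of members was 8% (4 genes) against 5.94% in WT. In FLI1-KO it was 4% (2 genes) against 1.43%. These counts are too small to set the members apart from all genes. Scaling the lists to one background, the summit rule for sharing and a −log10 q of at least 5 left all 4 counts within 1.5 times.

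The count of immune-inducible members higher past 1.5-fold at the summit was 0 under every alternative in both genotypes. The count lower, recounted after the data were seen, was 0 too, except that 1 gene, PSMB8, was lower in WT when divided by the local background. The median log2 ratio of the other members with IFN-γ in WT (−0.06) became 0.024 when divided by the median promoter, 0.097 when divided by the local background and 0.011 relative to the chromosome. In FLI1-KO (−0.15) these were 0.018, −0.082 and 0.0029. Divided by the local background, the median of sgFLI1 over WT (0.01) was 0.23 and that of sgFLI1-IFN-γ over WT-IFN-γ (−0.03) was 0.060, and relative to the chromosome the latter was 0.048. For PSMB8 alone, division by the local background turned 0.18 into −0.71 with IFN-γ in WT and −0.39 into 0.52 between the treated libraries, since its background itself was higher in WT-IFN-γ. A 500 bp limit on edge moves left 1 of the 3 immune-inducible genes in WT, PSMB8, and 0 in FLI1-KO, and no background ratio of these 5 passed 2-fold.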
